A study of Melitaea cinxia with 174 samples.

Results

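The 150 genes described here were those with a higher mean count in females than in males of the Glanville fritillary butterfly (Melitaea cinxia) in each of 4 populations, ranked by the smallest of the 4 differences. They were taken from 6134 gene models, out of 16667 in all, whose log2(normalised count + 1) averaged 2 or more over 174 individuals. The sexes were those given with the samples, and for each population the male mean was subtracted from the female mean on that log2 scale, so that 1 unit is a doubling of the value. The sex difference therefore chose the genes, and its size is given below as a description without a test. The cut fell at a difference of 0.373: MCINX001348 (0.374) and MCINX004323 (0.373) were the last genes inside, and MCINX004048 and MCINX011236 (both 0.371) the first outside.

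RNA came from the thorax, which holds the flight muscles, of adults kept for 3 days after emergence. The butterflies had been collected as larvae in 2009 on Åland (ÅL; 23 females and 26 males) and in Uppland (UP; 11 and 9), where the habitat is fragmented, and on Saaremaa (SA; 28 and 35) and Öland (ÖL; 15 and 27), where it is continuous. All were wild-caught, without any treatment or genetic change, reared singly in a common garden on ribwort plantain, and 1 larva per family was sequenced. Libraries held between 442717 and 7742394 counted reads, with a median of 2677838. The 3 flight muscle genes with a name in the sources (2 troponin C genes and a myosin heavy chain) had a summed level between 9.31 and 12.41 log2 units in every group of population and sex. The 4 hexamerins, storage proteins of the fat body, averaged between 0.48 and 1.36 log2 units, the 2 chorion peroxidases between 0.80 and 1.54, and none of these passed the mean of 2.

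In butterflies the female carries the unlike pair of sex chromosomes, Z and W, and the male 2 copies of Z. Sex in the silkworm (Bombyx mori) is set through the gene doublesex, whose transcript is spliced in a female and a male form, and the 2 proteins direct the expression of genes in the tissues of each sex. In females of many insects the fat body makes yolk proteins for the eggs, and materials stored in the body are moved to the ovary. The thorax samples pool muscle, fat body, cuticle, tracheae and nerve tissue, so that fewer cells of a type and less RNA per cell cannot be told apart. The libraries read the 3′ part of transcripts, and counts are per gene model, so transcript forms of a model were counted together.

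Of the 174 libraries, 5 lay nearer the mean of the other sex than that of their own sex and population on the mean log2 level of the 10 highest members. ÅL male 14 (9.76, against a mean of 4.27 in the other ÅL males and 8.18 in the females) and ÖL male 11 (8.01, against 4.10 and 7.99) were at or above the female means. SA female 6 (4.79) lay near the SA males (4.11). UP males 4 and 8 (6.55 and 6.70) lay between the UP females (7.74) and the remaining UP males (4.17 and 4.15, each leaving the library itself out). On the 10 genes highest in males by the mirrored rule, the first 3 of these libraries lay likewise near the other sex, with 7.73, 7.65 and 8.90 log2 units against 7.96, 7.52 and 8.71 there. The 2 UP males were at 8.94 and 8.34, against 8.82 and 8.89 in the other males and 7.64 in the females. The study set a few individuals aside for genotypes that fitted another population or none. The labels do not mark them, so they are among the individuals used here, and whether any is 1 of the 5 libraries was not tested. The cause was not tested either, all 5 libraries were kept under their labels, and values without them are given beside the results that rest on them.

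The highest of the members were 2 genes without a name in the sources, MCINX012856 and MCINX012439. In ÅL, MCINX012856 ranged in females from 7.72 over a median of 9.11 to 10.48 log2 units, and in males from 1.04 over 2.23 to 10.23. In UP it ranged from 6.71 over 8.28 to 9.97 in females and from 1.81 over 2.62 to 7.61 in males. In SA the values were 2.86, 7.0 and 9.26 in females and 0, 1.81 and 3.86 in males, and in ÖL 5.65, 7.90 and 9.92 in females and 0, 2.37 and 9.12 in males. The male maxima of ÅL, UP and ÖL and the female minimum of SA were from the libraries named above, and the gene was listed at 0 in 6 of 35 SA males and 2 of 27 ÖL males. The female mean exceeded the male mean by 6.46, 4.62, 5.12 and 5.40 (ÅL, UP, SA, ÖL), with standard deviations within groups from 0.68 to 2.19. Without the 5 libraries the differences were 6.77, 5.62, 5.28 and 5.65.

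MCINX012439 ran close to it. Its female medians were 9.37, 8.35, 7.41 and 8.22 (ÅL, UP, SA, ÖL), and its male medians 2.80, 3.15, 2.35 and 2.35 log2 units. The differences of the means were 6.20, 4.61, 5.15 and 5.67, and 6.47, 5.58, 5.30 and 5.92 without the 5 libraries. With all libraries the sexes overlapped in at least 1 population for all 150 members, and no gene of the 6134 (0%) had every female above every male in all 4 populations. Without the 5 libraries, MCINX012856 and MCINX012439 had every female above every male in each population, the 2 genes of 6134 (0.0326%) that did so. Taken by population, this held without them for 2 members in ÅL (0.0326% of all genes), 12 in UP (0.212%), 6 in SA (0.0978%) and 6 in ÖL (0.0978%). As those libraries were picked on these genes among others, this too is a description.

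MCINX009163 and MCINX004333 followed, likewise without a name. The differences of MCINX009163 spanned more than those of any other member, from 3.62 in UP through 3.90 in ÅL and 4.80 in SA to 6.45 in ÖL. Its female medians were 5.55, 6.84, 6.79 and 8.56 (ÅL, UP, SA, ÖL), while the male medians stayed between 1.87 and 2.82. MCINX004333 was more even, with differences of 3.61, 3.62, 3.11 and 3.74 in ÅL, UP, SA and ÖL. Its males spread widely, from 0 to 10.03 in ÅL around a median of 3.41 and from 1.20 to 7.98 in SA around 4.61, so that its sexes overlapped in ÅL, UP and SA even without the 5 libraries.

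**Figure D1:**
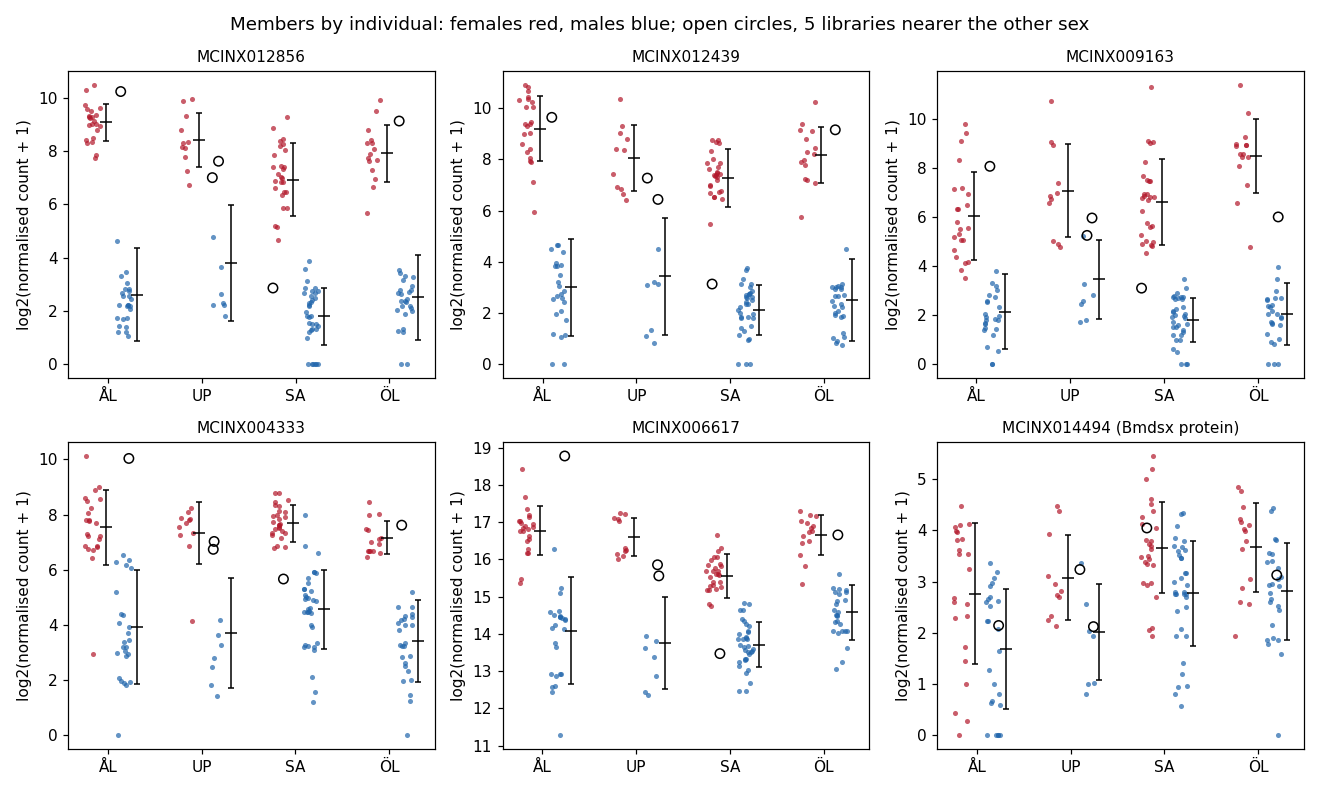
Level of 6 members in each individual, as log2(normalised count + 1), by population (ÅL, UP, SA, ÖL) and sex (females red, males blue), with the mean and standard deviation of each group as black bars and the 5 libraries nearer the other sex as open circles. For MCINX012856 and MCINX012439 the remaining females and males form separate bands, while for MCINX014494, named Bmdsx protein, the bands overlap in every population.

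Of the 10 highest members, 6 (MCINX006610, MCINX006611, MCINX006615, MCINX006617, MCINX006618 and MCINX006619) had numbers within 1 stretch of 10 consecutive gene models, and MCINX006612 and MCINX006613 of the same stretch were members at ranks 13 and 16. The sources give none of the 8 a name. The other 2 models, MCINX006614 and MCINX006616, had mean levels of 0.08 and 0.79 log2 units and so fell under the mean of 2, but MCINX006616 was higher in females in all populations as well, by 0.46 to 1.20. Outside the stretch the difference was smaller than in its 8 members. It lay between -0.22 and 0.05 for MCINX006608, between 0.08 and 0.49 for MCINX006609 and between -0.10 and 0.27 for MCINX006621. MCINX006620, the model right after the stretch, was higher in females in all populations, by 0.10 to 0.51. Its mean level was 0.16 log2 units, too low to show a large difference. Chromosome positions and sequences of these models were not used here, and whether reads could be shared between neighbouring models was not tested.

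**Figure D2:**
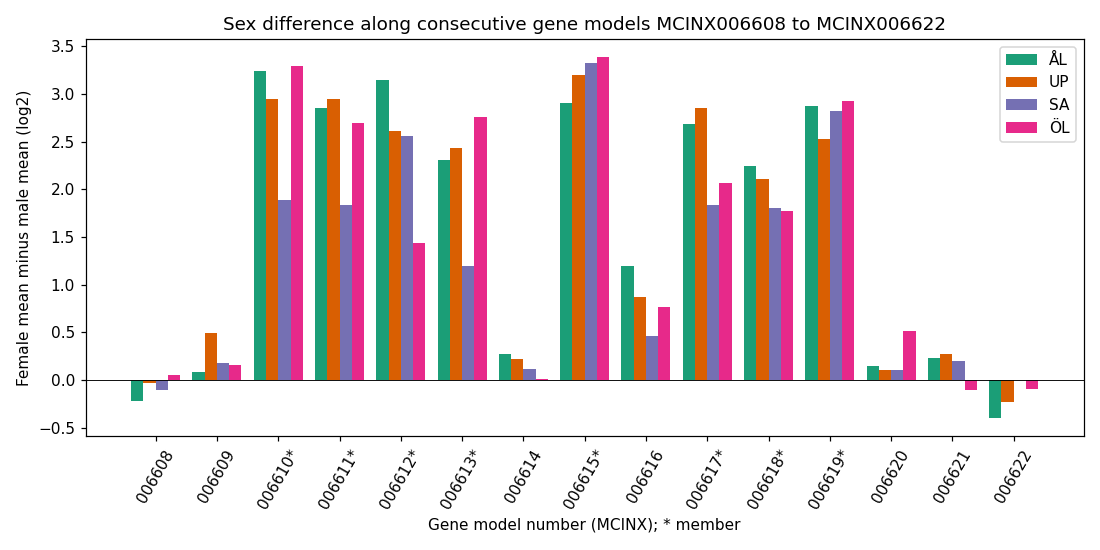
Female mean minus male mean in log2 units for 15 gene models with consecutive numbers, MCINX006608 to MCINX006622, in the populations ÅL, UP, SA and ÖL (bars); an asterisk marks the 8 members. The difference is between 1.20 and 3.39 for the members and at most 0.51 for the models on either side of the stretch from MCINX006610 to MCINX006619.

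MCINX006617 made up a large part of all counted reads. In females its median share of a library was 12.0%, 9.06%, 6.24% and 11.9% (ÅL, UP, SA, ÖL), and in males 1.44%, 1.24%, 1.36% and 2.16%. Shares ranged from 1.12% to 20.7% over all females, the lowest being SA female 6, and from 0.277% to 27.2% over all males, the highest being ÅL male 14. On the log2 scale the female medians were 16.85, 16.30, 15.61 and 16.77 and the male medians 14.31, 13.63, 13.68 and 14.52 in the same order. The sexes differed by 2.69, 2.85, 1.84 and 2.07, so that SA, whose females were the lowest, had the smallest difference. The median differences of the members were the same to 2 decimals when raw counts were scaled with TMM factors computed here. The deposited values had been scaled in the same way, so this does not test whether the scaling affects the differences. All members but MCINX006617 together held a median of 2.05% to 2.37% of the reads in females and 0.793% to 0.931% in males.

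Of the other members of the stretch, MCINX006615 had differences of 2.91, 3.20, 3.33 and 3.39 (ÅL, UP, SA, ÖL). MCINX006619 differed by 2.53 to 2.93 and MCINX006618 by 1.77 to 2.25. MCINX006613 was lowest in SA, where males ranged from 0 over a median of 0.56 to 3.20 and 13 of 35 were listed at 0. Females of SA ranged from 0.37 over a median of 1.67 to 6.22, against female medians of 5.19 in ÅL, 4.82 in UP and 5.55 in ÖL. MCINX006612 was instead lowest in ÖL, where females ranged from 1.28 over 7.41 to 9.72 and males from 1.21 over 5.49 to 8.53.

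A name was given in the study's tables for 17 of the 150 members, against 872 of the 6134 genes. The tables list mostly genes that differed between landscapes, so the named members are not a fair sample of the set. The gene named Bmdsx protein, MCINX014494, after the doublesex protein of the silkworm, stood at rank 30. In ÅL it ranged from 0 over a median of 3.25 to 4.48 in females and from 0 over 2.11 to 3.37 in males. In UP the values were 2.13, 2.83 and 4.48 in females and 0.82, 2.03 and 3.36 in males. In SA they were 1.95, 3.67 and 5.45 against 0.58, 2.80 and 4.34, and in ÖL 1.94, 3.99 and 4.84 against 0, 2.93 and 4.44. The female means were higher by 1.08, 1.06, 0.89 and 0.86, about the size of the standard deviation within a group (0.83 to 1.37), and the sexes overlapped in every population.

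A pair of the named members was named after proteins that act on RNA. MCINX012015, named LSm6 after a protein of the ring that binds U6 small nuclear RNA, was higher in females by 1.26, 1.24, 1.06 and 1.38 in ÅL, UP, SA and ÖL. MCINX011979, named dim1 after a protein of the spliceosome, was higher by 0.65, 0.60, 0.79 and 0.69. MCINX008204, named RuvB-like 1 and matched to pontin of Drosophila, a helicase of chromatin remodelling complexes, had a female median of 5.46, 5.37, 6.40 and 5.39 (ÅL, UP, SA, ÖL). Its male medians were 3.57, 3.67, 3.86 and 3.38, and the means differed by 1.83, 1.03, 2.47 and 1.77.

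Another pair was named after carriers of fat-soluble molecules. MCINX007433, like the alpha-tocopherol transfer protein that binds vitamin E, was higher in females by 1.28, 1.40, 0.83 and 0.99. MCINX007711, named after the cellular retinaldehyde-binding protein, was higher by 1.41, 0.66, 0.96 and 1.05. Of genes for enzymes and their like, MCINX013094, a low molecular weight phosphotyrosine phosphatase, was higher by 0.53 in ÅL and by 1.17, 1.30 and 0.91 in UP, SA and ÖL. MCINX009304, named after the dolichol-phosphate mannosyltransferase that supplies mannose for glycoproteins, was higher by 0.38 in SA to 1.04 in ÖL. MCINX015855, named after DPH3 of diphthamide synthesis on a translation factor, was higher by 0.67 in SA to 1.67 in ÖL. MCINX010113, named after a cysteine protease, was higher by 0.39 to 0.82 with standard deviations of 1.12 to 1.95, and its medians in UP were reversed, with 3.10 in females and 3.65 in males.

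MCINX012855, named after a protein that binds Gram-negative bacteria, has the number next to MCINX012856, the highest member. It was higher by 0.63, 1.41, 0.47 and 0.63 (ÅL, UP, SA, ÖL), and in UP it was 1 of 3 members, of 3 genes in all (0.0489%), in which every female lay above every male with all libraries. The other 2 were MCINX006617 and MCINX006618. MCINX005560, named sortilin-related receptor and matched to the Drosophila receptors arrow and Megalin, was higher by 0.52 to 1.06 and was the member listed in the hedgehog pathway, in which 41 genes had a mean of 2 or more. With MCINX008204 and MCINX012128 it was also 1 of 3 members among 53 such genes of the Wnt pathway. Of all 6134 genes at that mean 150 were members, and the pathway counts were not tested. MCINX012128, named as a potassium channel but matched to a protein kinase of Drosophila, was higher by 2.04, 0.86, 1.48 and 0.60 (ÅL, UP, SA, ÖL). The remaining named members, MCINX004486 (lethal(2)k10201), MCINX007066 (AIP1), MCINX002729 (C-factor) and MCINX004323 (a putative secreted peptide), were higher by 0.37 to 0.83.

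None of the 32 genes of the flight experiment's list with a mean of 2 or more was a member, and none of 15 Notch pathway genes, 23 ribosomal protein genes, 9 cuticle genes, 11 lipid genes, 7 respiratory chain genes, 5 heat shock and chaperone genes, 4 ecdysteroid genes or 3 cytochrome P450 genes. Members were 150 of all 6134 genes at that mean, a share at which lists this short would hold few or none. The ecdysteroid genes had median differences of -0.55, -0.51, -0.38 and -0.52 in ÅL, UP, SA and ÖL, and the chaperone genes 0.26, 0.21, 0.42 and 0.27. Among 19 protease and inhibitor genes, MCINX010113 was the member. The 2 testis genes with a mean of 2 or more differed by -0.33 to 0.21 and were not members. The flight muscle genes, none a member, had median summed levels of 10.34 to 10.74 in females and 10.15 to 10.57 in males, in groups that overlapped. Those of the 4 hexamerins were 3.42, 1.78, 1.45 and 1.75 in females (ÅL, UP, SA, ÖL). In males they were 2.94, 1.22, 1.05 and 1.07, so the female median was higher in each population, again in groups that overlapped. The part of these tissues in the members' differences was not tested.

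Over all 150 members the median difference was 0.80, 0.64, 0.79 and 0.85 (ÅL, UP, SA, ÖL). It was 0.02 to 0.09 over the 6134 genes, of which 52.0% to 60.2% were above 0. In 22 members the smallest difference was 1 or more, and in 63 it was below 0.5. UP held the smallest of the 4 differences for 60 members, SA for 35, ÅL for 30 and ÖL for 25. Without the 5 libraries the median in UP was 0.76 and the others were 0.82, 0.79 and 0.87, and all 150 remained above 0 in every population. The male counterpart was weaker at its top, with a smallest difference of -1.41 for MCINX015264, the first gene of the mirrored rule, and of -0.41 for its last. In 1517 genes the female mean was higher in all 4 populations and in 880 the male mean.

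**Figure D3:**
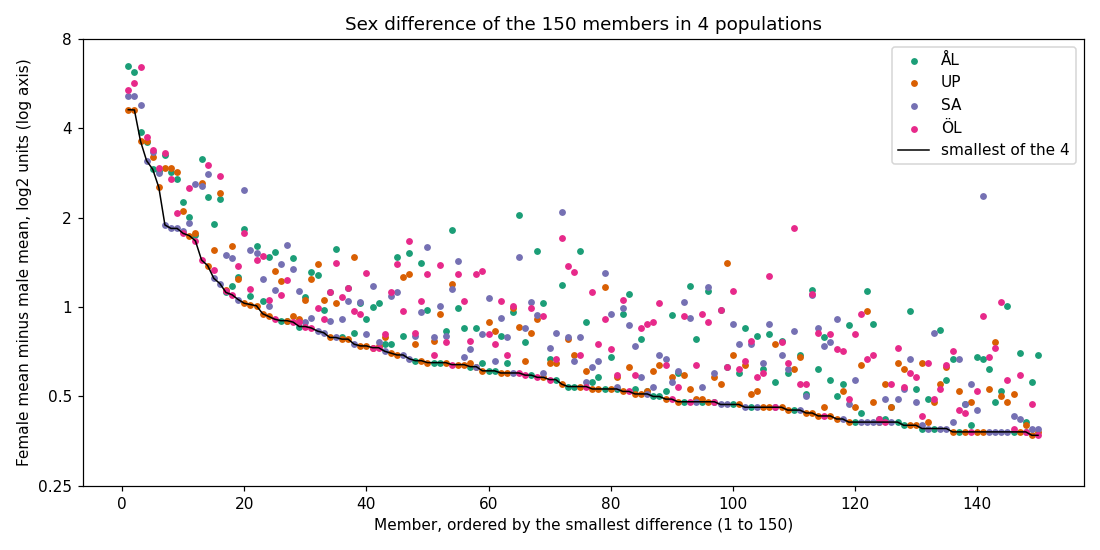
Female mean minus male mean of each of the 150 members in ÅL, UP, SA and ÖL (points, log2 units on a log axis), ordered by the smallest of the 4 (black line). A steep start from 4.62 gives way to a long tail between 1 and 0.37 that holds 128 members.

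Members differed in how even they were. The range of the 4 differences had a median of 0.45. It was widest in MCINX009163, MCINX009890 and MCINX012856. MCINX009890 differed by 2.36 in SA but by 0.67 in ÅL, 0.38 in UP and 0.93 in ÖL. It was narrowest in MCINX005765, at 0.41 or 0.42 in each population, MCINX016530, at 0.38 to 0.41, and MCINX002760, at 0.53 to 0.59. The differences between populations were not tested, as the smallest of them chose the genes.

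The rule used the sex differences and the mean over all individuals, not the contrast between populations, and the landscape contrast was therefore tested. A gene near 0 in any population cannot have a large sex difference there, so the choice was not wholly independent of the level by population. In a fit of edgeR's quasi-likelihood test over 8976 genes, averaged over the sexes, 67 of 150 members differed between fragmented and continuous populations at FDR<0.05, where 38.9% of all genes did so. Of these, 39 were higher in the fragmented populations, against 20.8% of all genes, and 28 lower, against 18.1%. Any difference among the 4 populations was found for 101 members, against 66.9% of all genes. Of the 6134 genes with a mean of 2 or more, from which the members came, 41% differed between landscapes and 69.7% among populations. In females alone 41 members were past the landscape threshold, against 25.1% of all genes, and in males alone 33, against 22.4%. The median landscape difference of members was 0.06 log2 units and that of all genes 0.01. The shares of members were thus near those of all genes. The replicates of a landscape type are its 2 populations, and the test measures individuals within populations.

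**Figure D4:**
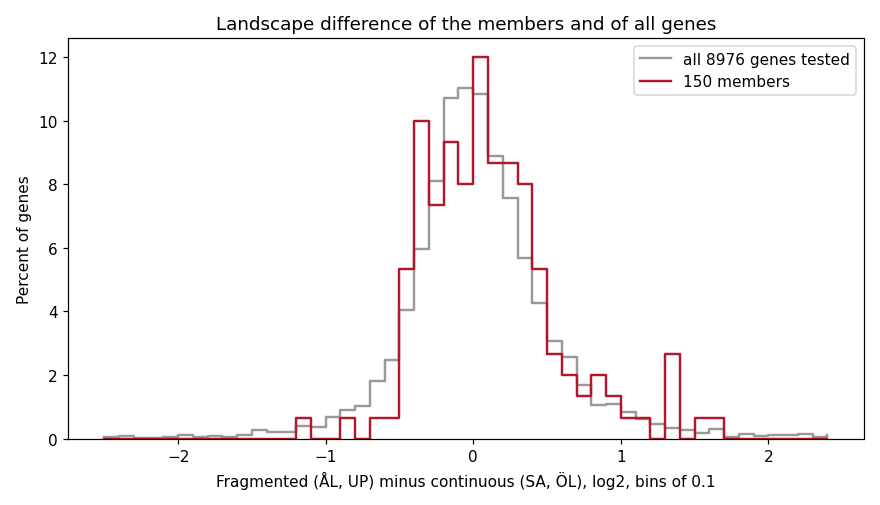
Distribution of the landscape difference, the log2 fold change of the fragmented (ÅL, UP) over the continuous (SA, ÖL) populations averaged over sexes, for the 150 members (red) and all 8976 genes tested (grey), as percent of genes per bin of 0.1. Both are centred near 0, and the members reach from -1.19 to 1.65.

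Among the members past that threshold, MCINX012856 was higher in the fragmented populations by 1.65 ± 0.30 (SE, FDR = 2.0e-06 by edgeR), the largest difference with all libraries. Without the 5 libraries it was 0.82 ± 0.17 (edgeR FDR = 3.0e-05), below the next 2 genes (1.48 and 1.29). As those libraries were picked on this gene among others, that SE and FDR are a description and not a test. Without SA, MCINX012856 was at 0.78 ± 0.45 (edgeR FDR = 0.23), and without ÖL at 2.58. In the balanced set of 60, the 15 deepest libraries per population, it was at 0.57 and no longer past the threshold. MCINX007433, the alpha-tocopherol transfer protein-like gene, had female medians of 4.03 in ÅL and 4.18 in UP against 1.92 in SA and 2.90 in ÖL. Its male medians were 2.75 and 2.71 against 1.21 and 2.03, and it was higher by 1.56 ± 0.18 (edgeR FDR = 5.4e-13), with 1.69 in females alone and 1.49 in males alone. Without SA it was 0.92 ± 0.24 (edgeR FDR = 0.0037). MCINX014875, without a name, was highest in UP, where females ranged from 3.87 over 4.35 to 4.97 and males from 2.40 over 3.63 to 4.29. It was higher by 1.36 ± 0.16 (edgeR FDR = 1.4e-12).

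In the other direction, MCINX010113, the cysteine protease gene, was lower by 1.19 in the fragmented populations (log2 difference -1.19 ± 0.25, edgeR FDR = 3.7e-05). Its female medians were 4.08 in ÅL and 3.10 in UP against 5.64 in SA and 4.97 in ÖL, in groups that overlapped. MCINX014494, Bmdsx protein, followed at -0.87 ± 0.19 (edgeR FDR = 8.8e-05), with -0.69 in females alone, -1.04 in males alone and -0.92 without the 5 libraries. Each of the populations left out in turn gave a value from -0.91 to -0.81. MCINX001719, without a name, was at -0.67 ± 0.28 (edgeR FDR = 0.041), and this call did not hold under most alternatives. It was at 0.09 without SA (edgeR FDR = 0.89) and at -0.04 without UP (edgeR FDR = 0.92). Females alone (-0.89, edgeR FDR = 0.11) and males alone (-0.43, edgeR FDR = 0.41) did not pass, nor did the fits with RLE factors, no filter, no sex term, total count as a covariate or the balanced set. Without the 5 libraries it was at -1.08 (edgeR FDR = 0.0021), without ÅL at -1.29 and without ÖL at -1.41.

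The landscape result of the consecutive gene models rested on the 5 libraries, on SA and on ÅL. With all libraries, 5 of the 8 were past the threshold. Without them MCINX006613 was, at 1.02 ± 0.23 (edgeR FDR = 1.9e-04), and MCINX006617 fell from 0.49 ± 0.15 (edgeR FDR = 0.0064) to 0.08 ± 0.12 (edgeR FDR = 0.64). With all libraries but without ÅL, MCINX006613 alone of the 5 was past it (1.04 ± 0.34, edgeR FDR = 0.019). Without SA none of these 5 was past it, though MCINX006612, another of the 8, was (1.01 ± 0.37, edgeR FDR = 0.048). MCINX006613 was then at -0.19 ± 0.28 (edgeR FDR = 0.69), and at 2.86 without ÖL, while MCINX006617 was at 0.01 (edgeR FDR = 0.97) without SA and at 0.21 (edgeR FDR = 0.38) without ÅL. Among the 10 highest members, the number past the threshold went from 6 to 2, MCINX012856 and MCINX012439, and MCINX012439 was at 0.50 ± 0.43 (edgeR FDR = 0.46) without SA. Over all members it went from 67 to 61, where 36.6% of all genes were past it, and 58 members were past it in both fits. Without SA it was 15 of 150, or 10%, where 16.1% of all genes were past it, and without ÖL 82, or 54.7%, where 50.8% were. The 5 libraries were picked on the 10 highest members, MCINX006617 among them. For those genes the SE, FDR and count without the libraries are a description and not a test.

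Individuals of 1 population and sex also varied together in some members. After the mean of each group was removed, the median Pearson correlation between pairs of members over 174 individuals was 0.054, against 0.019 for all pairs of the 6134 genes and 0.146 among the 150 genes highest in males. Without the 5 libraries these were 0.028, 0.019 and 0.115. For the 8 members of the consecutive stretch it was 0.460, and 0.323 without the 5 libraries, ranging over their 28 pairs from 0.03 to 0.60. Over the groups of population and sex, without those libraries, it lay between 0.256 and 0.594. Of the 11175 pairs of members, 47 reached 0.5 without the 5 libraries, 3 of them within the stretch. Such pairs were not counted among all genes or the genes highest in males, so whether 47 is many is not known. The highest correlation of members, named after its value was seen, was 0.75 between MCINX014737 and MCINX013556, also without those libraries. Values of an individual share 1 library and 1 scaling factor.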

How the data were processed

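RNA from the thorax of 174 individuals was sequenced by the authors with strand-specific libraries anchored at the poly-A tail, mapped with TopHat2 2.0.5 after base calling with CASAVA 1.7 (both named in the submitters' processing notes), and counted per gene model. The raw counts were deposited as whole numbers, 1 column per library, with no scaling. The deposited normalised counts, a signal in which the authors scaled the raw counts by library size and TMM factor, are a constant multiple of the raw counts within an individual (relative spread up to 0.0003). The 2 sequencing centres and platforms could not be assigned to individuals, and no run date was used.

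Members and gene lists were chosen with earlier results of these data known. Members were computed on log2(normalised count + 1). The landscape contrast (ÅL and UP against SA and ÖL, averaged over sexes) and the 3-degree test of any population difference were computed on raw counts with edgeR 4.0.16 (R 4.3.3): TMM, filterByExpr with a minimum count of 10, 1 mean per population and sex, glmQLFit, Benjamini-Hochberg FDR under 0.05. Alternatives used DESeq2 1.42.0. Descriptions ran in Python 3.11.15. Genes named are the 10 highest members, up to 20 with a descriptive name, the 3 with the largest landscape difference each way, the 2 on either side of the cut, the 3 with the widest and the 3 with the narrowest range of differences, and those in lists of the study. The further models of the consecutive stretch, their neighbours and the pair with the highest correlation were added after their values were seen. Names and lists come from the study's supplementary tables, of which the landscape table was read in part. File identifiers carry a prefix that the tables lack, with the same number. The RefSeq annotation shares no identifier with these gene models, so no chromosome or sequence is given. On simulated counts of 8531 genes, the landscape fit recovered 91.8% of genes changed by 1 log2 unit and 75.7% of those changed by 0.6, with 12 false calls. The simulated counts held no sex effect and no population difference besides the landscape change. The false calls therefore do not cover population differences that the real fit can call.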

Additional observations from a re-analysis of the deposited data

Results flagged for a closer look

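The sortilin-related receptor gene MCINX005560 had 1 low value among the 9 UP males, 3.22 log2 units in UP male 1, where the next was 4.62. The gap was 0.54 of the range of the group, above Dixon's critical value at the 95% level for 9 samples. Chance gives such a value in about 1 of 20 groups, and 32 members were examined in this group.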

How the results depend on the processing

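Of the 150 members, 83 were chosen again in the balanced set of 60. With the cut raised to a mean of 4 or more, 78 were chosen again. These are all the members at that mean, so the cut fixed this number in advance. Between 103 and 150 were chosen again under the other settings. The median difference in ÅL was 0.62 with a pseudocount of 4. Smallest differences below 0 were found in the balanced set for MCINX012128 (-0.17), MCINX004323 (-0.23), MCINX001348 (-0.12) and MCINX002760 (-0.47), and with medians for MCINX010113 (-0.55) and MCINX009890 (-0.22).

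The count of members past the landscape threshold, 67 of 150, was 31 in the balanced set with population and sex (26.2% of all genes past it), 33 there without a sex term (25.7%; a setting added after seeing the data), 41 in females alone (25.1%), 33 in males alone (22.4%), 36 without ÅL (21.6%), 15 without SA (16.1%), 73 without UP (47.9%) and 82 without ÖL (50.8%). Members higher in the fragmented populations, 39, were 22 in the balanced set, 24 in females alone and 10 without SA. Members lower there, 28, were 12 with 1 mean per population and no sex term. They were 9 in the balanced set and 6 there without a sex term. In females alone they were 17, in males alone 5, without ÅL 9 and without SA 5. The share of all genes past the threshold either way, 38.9% in the main fit, was also lower in these settings. The exception was 1 mean per population with no sex term (39.3%). Shares of all genes by direction were not computed for these settings. Members with any population difference, 101, were 66 in the balanced set (46.3% of all genes), 53 there without a sex term (46.9%) and 63 in females alone (46%). The cause of these changes was not tested. The landscape difference of MCINX012439 was -0.03 in the balanced set, and without SA those of MCINX001719 and MCINX006613 were 0.09 and -0.19. Other settings, among them RLE factors, DESeq2 and no filter, gave counts within 1.5 times. Low counts limit members near a mean of 2. No paired analysis was made, because each library came from a different individual and the labels pair none of them. Some individual identifiers share digits between populations, but no source says that they mark a shared family, batch or day.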
